A study of Mus musculus with 35 samples.

Results

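Untreated mouse embryonic fibroblasts (MEFs) sampled 1 h after their culture medium was exchanged were compared with untreated MEFs sampled at 0 h, gene by gene. The arrays were chosen by their labels alone and are 8 of the 35 arrays of the study, with 4 control arrays at 1 h and 4 control arrays at 0 h. The study followed primary MEFs of the C57BL6/J strain, taken from embryos of day 15.5 and expanded for 2 passages in DMEM with 10% inactivated FBS, after exposure to methyl methanesulfonate (MMS), a chemical that methylates DNA. Cells were plated, and after 24 h their medium was replaced by medium without MMS (control) or with MMS at 40 µg/mL, and RNA was taken at 0, 1, 8, 24 and 72 h. No cells were sampled at 1 h in their old medium, so the fresh medium, its serum, the handling and the hour itself cannot be told apart in this comparison. The embryo age and passages are those of the labels, and the study's methods give others. MEFs prepared from whole embryos without head and fetal liver are a mixture of cells. The series calls the 4 arrays of a group biological replicates, and the sources used here do not say whether each came from its own embryo or culture. A p-value here reflects how far arrays of the same group differ among themselves, with that spread estimated over all 35 arrays.

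Of 18194 genes with a probe set of 1 symbol, 14135 had a mean of at least log2 4.40 in some group and were tested, and 4059 were below that limit. Mean log2 signal over 18 fibroblast markers was 10.89 to 11.09 on all 8 arrays. Control 0 h replicate 3 stood apart from the other arrays. Its mean over 38 intestinal epithelium markers was 10.51, against 4.50 to 4.71 on the other 0 h arrays, and 37 of the 38 were more than 1 log2 unit above them. Its mean over 17 macrophage markers was 5.86, against 4.47 to 4.50, with 9 of 17 above in the same way. Among the 1 h arrays, replicate 3 had an intestinal mean of 5.31 with 11 of the 38 markers raised, and replicate 4 had 4.97 with 1 raised. Control 0 h replicate 3 correlated with the other 7 arrays at 0.909 to 0.920 over genes, while all other pairs reached 0.989 to 0.998. In bulk RNA, fewer cells of a type and less RNA per cell cannot be told apart. Counts by gene list are therefore also given without control 0 h replicate 3, and so are the values of several genes in which that array stood apart.

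Serum in fresh medium is a classical stimulus of resting fibroblasts. Growth factors in it bind receptor tyrosine kinases and start the ERK MAP kinase cascade, after which ternary complex factors and serum response factor (SRF) act on promoters through the CArG box. The cAMP and calcium pathways act through CREB at the cAMP response element (CRE). The genes switched on first, before any new protein is made, are called immediate early genes: they encode transcription factors such as FOS, JUN and EGR1, secreted ligands, and inhibitors that end the signal again. Many of their RNAs are short-lived.

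At an adjusted p under 0.05, 1021 genes rose (7.22% of those tested) and 619 fell (4.38%), or 11.6% in either direction. Rises made up 62.3% of the calls, or 74.6% (1350 rises and 460 falls) after median centring of each array. The median log2 difference (1 h minus 0 h) was 0.34 among the genes that rose and -0.40 among those that fell. Changes of at least 2-fold were much rarer: 83 genes rose by that much (0.587%) and 14 fell (0.099%), and 22 rose at least 4-fold and 9 at least 8-fold while none fell 4-fold. Before adjustment, 3544 genes had p under 0.05 by limma. Without control 0 h replicate 3, 713 of the 1021 and 477 of the 619 were still called, and so were all 83 and all 14 of the 2-fold genes. With both arrays numbered 3 left out, 513 and 412 were still called. The number of 2-fold falls depended on the 0 h arrays and was 14 with all of them. It was 34, 35, 15 and 50 without control 0 h replicate 1, 2, 3 or 4, respectively. In 80 of the 83 genes the 4 arrays at 1 h all lay above the 4 at 0 h, and in all 14 they all lay below. Over all genes tested, 10.7% lay above in this way and 5.82% below. The 83 and the 14 were picked by their difference on these same arrays, so the separation is no further evidence. The rule for naming the largest changes also required it. In 7 of the 83 the 0 h mean and in 2 of the 14 the 1 h mean was below the limit for testing, so the size of those changes is known only as a lower bound. The 3 overlapping genes were Tcim, Ptger4 and Tent5a, each with a high value on control 0 h replicate 3. Tcim read 5.69, 5.82, 9.11 and 6.50 at 0 h, then 8.70, 8.81, 8.73 and 8.78 at 1 h.

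**Figure D1:**
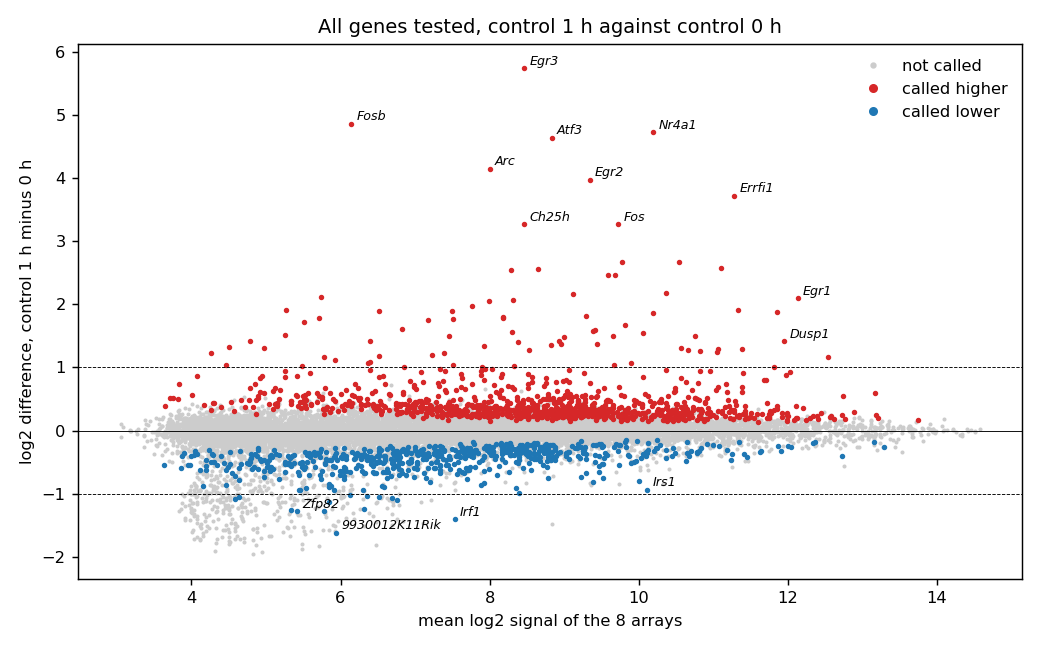
Log2 difference (control 1 h minus control 0 h, y axis) against the mean log2 signal of the 8 arrays (x axis) for the 14135 genes tested. Red points are the 1021 genes that rose, blue points the 619 that fell and grey points were not called, and the dashed lines mark a 2-fold change. Rises reached 5.74 log2 units (Egr3), falls only -1.62 (9930012K11Rik). The grey points below -1 at low signal were not called.

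The EGR zinc finger factors, which bind GC-rich DNA and relay growth signals to later genes, rose in all 4 members. Egr1, already bright at 0 h, read 11.07, 11.18, 11.00 and 11.08 at 0 h, then 13.25, 13.07, 13.18 and 13.21 at 1 h, a rise of 2.10 ± 0.09 (log2 difference ± SE) or 4.27-fold, adjusted p = 7.2e-17. Egr2 read 7.27, 7.29, 7.52 and 7.34 at 0 h, then 11.28, 11.25, 11.35 and 11.42 at 1 h, a rise of 3.97 ± 0.12 or 15.7-fold, adjusted p = 9.6e-21. Egr3 read 5.15, 5.51, 6.50 and 5.20 at 0 h, then 11.29, 11.25, 11.33 and 11.42 at 1 h, 53.3-fold higher (5.74 ± 0.27, adjusted p = 1.9e-16; 6.04 without control 0 h replicate 3). The groups did not overlap in any of these genes, and the 1 h arrays lay within 0.2 log2 units of each other in each. A dimmer gene, Egr4, rose from a mean of 5.37 ± 0.16 (SD, n = 4) to 6.49 ± 0.10, 2.18-fold. For Egr3 a further probe set above the limit read 6.12 at 0 h, then 6.66 at 1 h, a difference of 0.54, so the size of its rise depends on the probe set used.

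The NR4A family consists of orphan nuclear receptors that work without a known ligand. Of its 3 members, Nr4a1 rose and the other two were not called. Nr4a1 read 7.50, 7.93, 8.08 and 7.82 at 0 h, then 12.40, 12.51, 12.59 and 12.71 at 1 h, 26.3-fold higher (4.72 ± 0.16, adjusted p = 4.8e-20). Nr4a2 had a difference of 0.24 ± 0.12 (adjusted p = 0.2) and Nr4a3 of 0.02 ± 0.11 (adjusted p = 0.94). Another Nr4a3 probe set, which is dimmer, read 4.63 at 0 h, then 5.55 at 1 h, a difference of 0.91.

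AP-1 is a dimer of FOS and JUN family proteins that binds the sequence TGANTCA. Of 12 tested genes of the AP-1 list, 8 rose (66.7%, against 7.22% of all genes tested) and 1 fell (Mafg, -0.35). The median log2 difference was 1.17 against 0.00 over all genes tested. The same 8 and 1 were called without control 0 h replicate 3. Fosb, which read 3.62, 3.62, 3.92 and 3.67 at 0 h, all below the limit for testing, read 8.76, 8.55, 8.54 and 8.41 at 1 h, at least 18-fold higher when its 1 h mean is set against the limit (adjusted p = 1.9e-20). Fos read 7.38, 7.44, 9.78 and 7.74 at 0 h, then 11.39, 11.35, 11.44 and 11.23 at 1 h. The groups did not overlap, but control 0 h replicate 3 was more than 2 log2 units above the other 0 h arrays, so the difference was 3.27 ± 0.29 with that array and 3.83 without it.

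Atf3, a CREB-family factor that pairs with JUN, also had its highest 0 h value on replicate 3. It read 6.05, 6.41, 7.52 and 6.05 at 0 h, then 11.07, 11.10, 11.19 and 11.22 at 1 h, a rise of 4.64 ± 0.20 (24.9-fold). Without control 0 h replicate 3 the rise was 4.98. Junb (2.16 ± 0.13), Jun (1.86 ± 0.08), Fosl1 (1.58 ± 0.09) and Fosl2 (0.76 ± 0.06) rose less. Jund read 10.31 to 10.40 at 0 h, then 10.28 to 10.39 at 1 h, a difference of 0.00 ± 0.09. Maff, a small MAF protein, rose by 0.70.

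**Figure D2:**
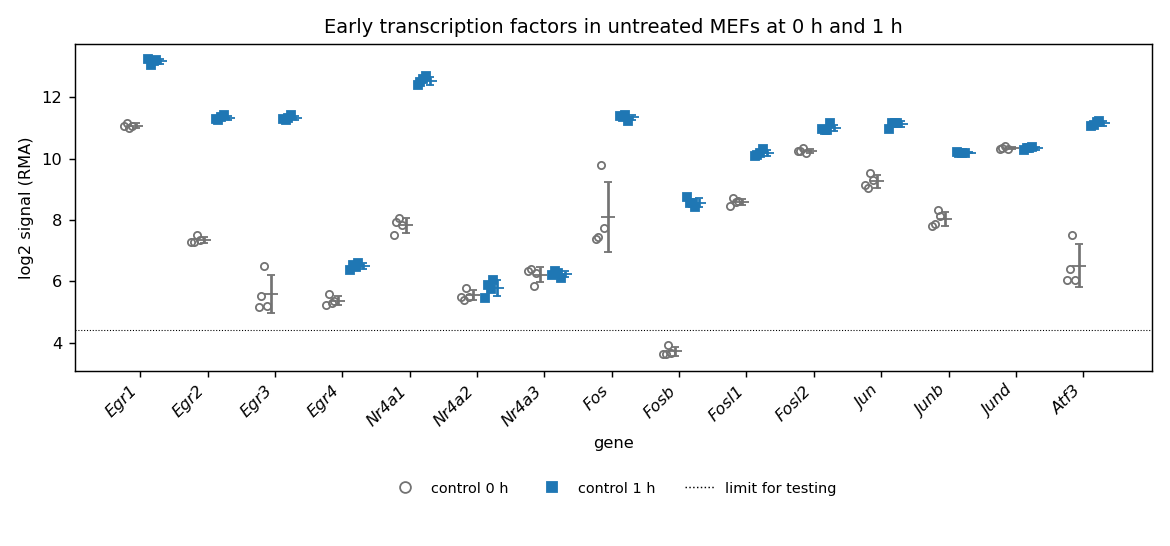
Log2 signal (y axis) of 15 early transcription factor genes (x axis) on each control array at 0 h (grey circles) and 1 h (blue squares), with the group mean and SD beside the points and a dotted line at the limit for testing. All 4 EGR genes, Nr4a1, Fos, Fosb, Fosl1, Fosl2, Jun, Junb and Atf3 lie higher at 1 h, while Nr4a2, Nr4a3 and Jund do not separate. The high 0 h points of Fos, Egr3 and Atf3 are replicate 3.

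In the wider list of EGR, NR4A and KLF factors, 11 of 26 tested genes rose (42.3%, against 7.22% of all genes tested). In that list 1 gene fell (Klf3, -0.35), and the median was 0.25. Without control 0 h replicate 3 the same 11 rose and the fall of Klf3 was lost. Krüppel-like factors are zinc finger regulators that respond to flow, serum and TGF-beta. Klf2 rose by 1.42 ± 0.12, Klf7 by 1.37, Klf10 by 1.36 ± 0.10 and Klf6 by 0.94 ± 0.16. Klf4 had a difference of -0.10 ± 0.19 (adjusted p = 0.81), with a value of 10.64 on control 0 h replicate 3 and 9.21 to 9.34 on the other 0 h arrays, and its difference was 0.25 without that array (adjusted p = 0.22). Srf itself read 8.50, 8.54, 8.36 and 8.63 at 0 h, then 9.21, 9.30, 9.29 and 9.30 at 1 h, a rise of 0.76 ± 0.06. Myc, the growth regulator, read 9.11, 9.07, 9.03 and 9.39 at 0 h, then 10.18, 10.24, 10.16 and 10.22 at 1 h (1.05 ± 0.07). Neither gene's groups overlapped.

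A CArG box or a CRE stands close to the start of several of these genes. The promoters below are the 250 bases before the RefSeq start (GRCm38.p6, read 5′ to 3′ on the gene's strand), shown because each belongs to a gene that rose at least 5-fold and holds a box that SRF or CREB is known to bind, and the boxes are in capitals. The CArG boxes begin 72 bases before the start in Egr2 (chr10:67537619-67537868, + strand), 82 and 72 bases before in Dusp5 (chr19:53528895-53529144, + strand) and 58 bases before in Zfp36 (chr7:28379229-28379478, - strand). The CRE, TGACGTCA, begins 51 bases before the start in Errfi1 (chr4:150854820-150855069, + strand), 61 in Ch25h (chr19:34475149-34475398, - strand) and 166 in Btg2 (chr1:134079156-134079405, - strand).
Egr2: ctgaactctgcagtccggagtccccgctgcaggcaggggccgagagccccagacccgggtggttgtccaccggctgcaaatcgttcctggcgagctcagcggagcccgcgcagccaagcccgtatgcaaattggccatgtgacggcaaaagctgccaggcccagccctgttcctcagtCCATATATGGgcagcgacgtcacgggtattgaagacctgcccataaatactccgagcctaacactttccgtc
Dusp5: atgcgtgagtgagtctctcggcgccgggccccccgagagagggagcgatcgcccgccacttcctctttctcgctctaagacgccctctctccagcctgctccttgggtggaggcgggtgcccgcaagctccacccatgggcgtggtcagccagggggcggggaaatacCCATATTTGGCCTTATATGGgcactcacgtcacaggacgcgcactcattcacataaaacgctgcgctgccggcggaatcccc
Zfp36: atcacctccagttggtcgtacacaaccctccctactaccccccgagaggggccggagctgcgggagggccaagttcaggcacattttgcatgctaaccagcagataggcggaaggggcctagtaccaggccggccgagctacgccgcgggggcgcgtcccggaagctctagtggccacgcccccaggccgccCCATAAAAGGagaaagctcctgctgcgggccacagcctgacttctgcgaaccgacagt
Errfi1: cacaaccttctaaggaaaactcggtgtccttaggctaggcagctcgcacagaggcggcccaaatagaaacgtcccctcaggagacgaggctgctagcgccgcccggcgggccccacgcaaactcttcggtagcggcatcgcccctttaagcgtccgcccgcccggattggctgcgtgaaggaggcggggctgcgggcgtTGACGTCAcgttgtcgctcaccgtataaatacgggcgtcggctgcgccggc
Ch25h: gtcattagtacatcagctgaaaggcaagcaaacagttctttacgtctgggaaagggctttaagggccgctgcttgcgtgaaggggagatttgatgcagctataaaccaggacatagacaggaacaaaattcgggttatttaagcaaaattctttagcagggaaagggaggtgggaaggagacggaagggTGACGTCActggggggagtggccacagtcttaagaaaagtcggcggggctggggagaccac
Btg2: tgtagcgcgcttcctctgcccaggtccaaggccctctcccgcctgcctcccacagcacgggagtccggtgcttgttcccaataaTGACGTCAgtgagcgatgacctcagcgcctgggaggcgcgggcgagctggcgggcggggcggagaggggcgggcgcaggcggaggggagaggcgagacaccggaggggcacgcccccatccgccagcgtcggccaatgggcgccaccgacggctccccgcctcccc

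Of the 83 genes with a 2-fold rise, 60 had a promoter window (250 bases before to 50 after the start) in RefSeq, and so had 11359 of all genes tested. A CArG box on either strand was found in 4 of the 60 (6.67%; Asb5, Dusp5, Egr2 and Zfp36) and in 1.67% of the windows of all genes tested. The CRE was found in 6 (10.0%, adding Creb5, Dusp1 and Plk2 to those printed) against 3.25%, and TGANTCA in 7 (11.7%) against 6.78%. TATAAA on the gene's own strand before the start was found in 10 (16.7%) against 5.71%, and it can share letters with a CArG box. On either strand, the E-box CACGTG was found in 9 of the 60 windows against 11.2% of all and the GC box GGGCGG in 43 (71.7%) against 64.6%, and the ETS motif CCGGAAGT and the consensus NF-kB motif in none of the 60, against 7.91% and 0.2%. These are matches of letters, and no match says only that the letters are not in the window. The median span from start to end was 8.04 kb for the genes with a 2-fold rise (82 with a span), 25.6 kb for all genes that rose (1017 with a span) and 21.8 kb over all genes tested.

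Of 47 other immediate early genes tested, 38 rose (80.9%, against 7.22% of all genes tested) and 1 fell (Gadd45a, -0.40), with a median of 0.76. Without control 0 h replicate 3, 37 of the 38 rises were called while the fall was not. The list also holds Nr4a1, described above. Arc, a cytoskeletal protein known from synapses, read 6.05, 5.93, 5.98 and 5.77 at 0 h, then 9.88, 10.10, 9.92 and 10.40 at 1 h, 17.7-fold higher (4.14 ± 0.14, adjusted p = 3.3e-20). Ereg, which encodes the EGF receptor ligand epiregulin, read 8.45, 8.49, 8.31 and 8.47 at 0 h, then 10.97, 11.09, 11.05 and 11.31 at 1 h (2.68 ± 0.09). Btg2, an antiproliferative protein that recruits RNA deadenylases, read 9.72, 9.78, 9.97 and 9.79 at 0 h, then 12.38, 12.38, 12.39 and 12.38 at 1 h (2.57 ± 0.08). The groups were apart by more than 2 log2 units in all 3 genes.

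Phlda1, a pleckstrin homology domain protein, rose by 2.66 ± 0.10, and Edn1, which encodes the vasoconstrictor endothelin, by 2.55 ± 0.11. Zfp36 encodes tristetraprolin, which binds AU-rich elements and speeds the decay of such RNAs. It read 7.99, 8.08, 9.15 and 8.20 at 0 h, then 10.89, 10.86, 10.79 and 10.77 at 1 h, a rise of 2.47 ± 0.15, or 2.73 without control 0 h replicate 3. Csrnp1 rose by 2.55 ± 0.08 on the probe set used, while another probe set above the limit had a difference of -0.01. Ier2 (2.19), Gem (2.12) and Ier3 (1.91) rose as well. Gadd45b (0.31) and Gadd45g (0.32) rose little. Outside the lists, Ch25h, which makes 25-hydroxycholesterol, read 6.61, 6.97, 6.87 and 6.86 at 0 h, then 9.84, 10.18, 10.21 and 10.17 at 1 h, 9.63-fold higher (3.27 ± 0.10, adjusted p = 5.9e-21), with no overlap.

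Feedback inhibitors of growth factor and MAP kinase signalling rose in 15 of 29 tested genes (51.7%, against 7.22% of all genes tested). They fell in 1 (Dusp7, -0.33), and the median was 0.26. Without control 0 h replicate 3, 12 rises and the fall were called. Errfi1, which binds and inhibits the EGF receptor, read 9.12, 9.23, 9.94 and 9.38 at 0 h, then 12.99, 13.13, 13.09 and 13.33 at 1 h, 13.1-fold higher (3.71 ± 0.11, adjusted p = 5.9e-21). The DUSP genes encode phosphatases that switch MAP kinases off. Dusp5, which acts on ERK in the nucleus, read 8.42, 8.33, 8.61 and 8.41 at 0 h, then 10.70, 11.01, 10.80 and 11.14 at 1 h (2.47 ± 0.11). Dusp6, which acts on ERK in the cytoplasm, read 8.01, 7.99, 9.23 and 8.30 at 0 h, then 10.05, 10.30, 10.21 and 10.21 at 1 h. Both were without overlap, and the rise of Dusp6 was 1.81 ± 0.16, or 2.09 without control 0 h replicate 3. Spry2, an inhibitor of receptor tyrosine kinase signalling, rose by 2.07 ± 0.12, Dusp10 by 1.77, Dusp2 by 1.72 and Dusp1 by 1.41 ± 0.07. Dusp3, Dusp8 and Spry1 were among the 13 not called.

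Secreted growth factors and their receptors rose in 11 of 40 tested genes (27.5%, against 7.22% of all genes tested). They fell in 1, the PDGF receptor gene Pdgfra (-0.38). Without control 0 h replicate 3, 9 of the rises were called and that fall was not. The largest rises were those of the EGF receptor ligand genes Ereg and Hbegf and the cytokine gene Lif. Hbegf read 10.99, 10.92, 10.83 and 10.95 at 0 h, then 12.74, 12.84, 12.70 and 12.93 at 1 h (1.88 ± 0.09), with no overlap. Lif rose by 2.05 ± 0.12 on its probe set, and another, dimmer probe set had 3.91 at 0 h, then 4.53 at 1 h. Vegfa (0.75), which drives vessel growth, and Fgf7 (0.63), a keratinocyte growth factor, also rose. Gdnf, in none of the lists, rose by 1.52 from a mean of 4.50 ± 0.15.

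In the list of NF-kB feedback genes, cytokines and chemokines, 11 of 35 tested genes rose (31.4%, against 7.22% of all genes tested). In it 2 fell, Irf1 and Irf2 (5.7%, against 4.38%), and the median was 0.12. Without control 0 h replicate 3, 8 rises and the fall of Irf1 remained. Tnfaip3, a deubiquitinase that dampens NF-kB, read 6.42, 6.12, 7.26 and 6.42 at 0 h, then 8.29, 8.52, 8.46 and 8.52 at 1 h, a rise of 1.89 ± 0.17, or 2.13 without control 0 h replicate 3. Nfkbiz, a nuclear IkB protein, rose by 1.40 ± 0.19, and by 1.71 without control 0 h replicate 3, which read 8.61 against 7.27 to 7.45 on the other 0 h arrays. Ptgs2, the inducible cyclooxygenase, rose by 1.17 ± 0.11 from a high level (11.96 ± 0.18), and Il6 by 0.85 ± 0.12 from a low one (4.82 ± 0.14). Other probe sets above the limit differed by 2.07 for Ptgs2, 0.99 for Tnfaip3, and 1.19 and 0.78 for Nfkbiz. The inhibitor gene Nfkbia rose by 0.48. Cxcl1, Ccl7, Icam1 and Tnf were not called.

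Of 36 contractile and cytoskeletal targets of SRF and MRTF, 5 rose (13.9%, against 7.22% of all genes tested), none by 2-fold, 1 fell (Mrtfb, -0.26) and the median was 0.06; 3 rises and the fall were called without control 0 h replicate 3. Filip1l (0.61) and Fhl2 (0.30) rose. The smooth muscle actin gene Acta2 read 14.41 to 14.51 at 0 h, then 14.44 to 14.51 at 1 h, and Actb 14.52 to 14.59 and 14.57 to 14.59, levels near the highest value of the table (14.62). Of 27 YAP and TEAD targets, 8 rose and 1 fell (Ajuba, -0.41), with a median of 0.16; 6 rises and the fall were called without control 0 h replicate 3. Ankrd1, a nuclear muscle-associated protein, rose by 1.68 ± 0.12, and F3, tissue factor, which starts blood clotting, by 1.29. Ccn1 rose by 0.60 ± 0.08, while Ccn2 had a difference of 0.18 ± 0.07 (adjusted p = 0.11).

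Among TGF-beta, BMP and ID genes 5 of 25 rose and 3 fell. Id1, an inhibitor of bHLH factors, rose by 0.97 ± 0.13, and Tgif1 (0.70), Bambi (0.65), Smad1 (0.56) and Skil (0.37) rose with it. Snai1 (-0.62), Smad6 (-0.46) and Snai2 (-0.41) fell. All 8 calls were also made without control 0 h replicate 3. Of 21 Notch and WNT feedback genes 3 rose (Hes1, Hey2 and Jag1, 14.3%) and 2 fell (Hes6 and Nrarp, 9.5%). All but the fall of Nrarp were called without control 0 h replicate 3.

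A serum shock sets the circadian clock of fibroblasts through Per1, whose protein represses its own transcription. Of 20 clock genes tested, 4 rose and 1 fell (Tef, -0.21), and the same were called without control 0 h replicate 3. Per1 read 6.67, 6.93, 6.22 and 6.70 at 0 h, then 7.73, 7.85, 7.82 and 7.93 at 1 h, a rise of 1.20 ± 0.14 with no overlap. The repressors Bhlhe40 (1.54 ± 0.09) and Nfil3 (1.36 ± 0.10) and the casein kinase gene Csnk1e (0.47) rose. Per2, at the limit of testing, had a difference of 0.25 ± 0.11 (adjusted p = 0.13), and Arntl, Clock, Cry1, Dbp and Nr1d1 were among the 15 not called. Of the 25 glucocorticoid and cAMP responsive genes, 7 rose (28.0%, against 7.22% of all genes tested) and none fell. Fkbp5, Tsc22d3 and Klf9 were among the 18 not called. The 7 were Fosb, Nr4a1, Errfi1, Dusp1, Per1, Sgk1 (0.87) and Crem (0.39), 6 of them called without control 0 h replicate 3.

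**Figure D3:**
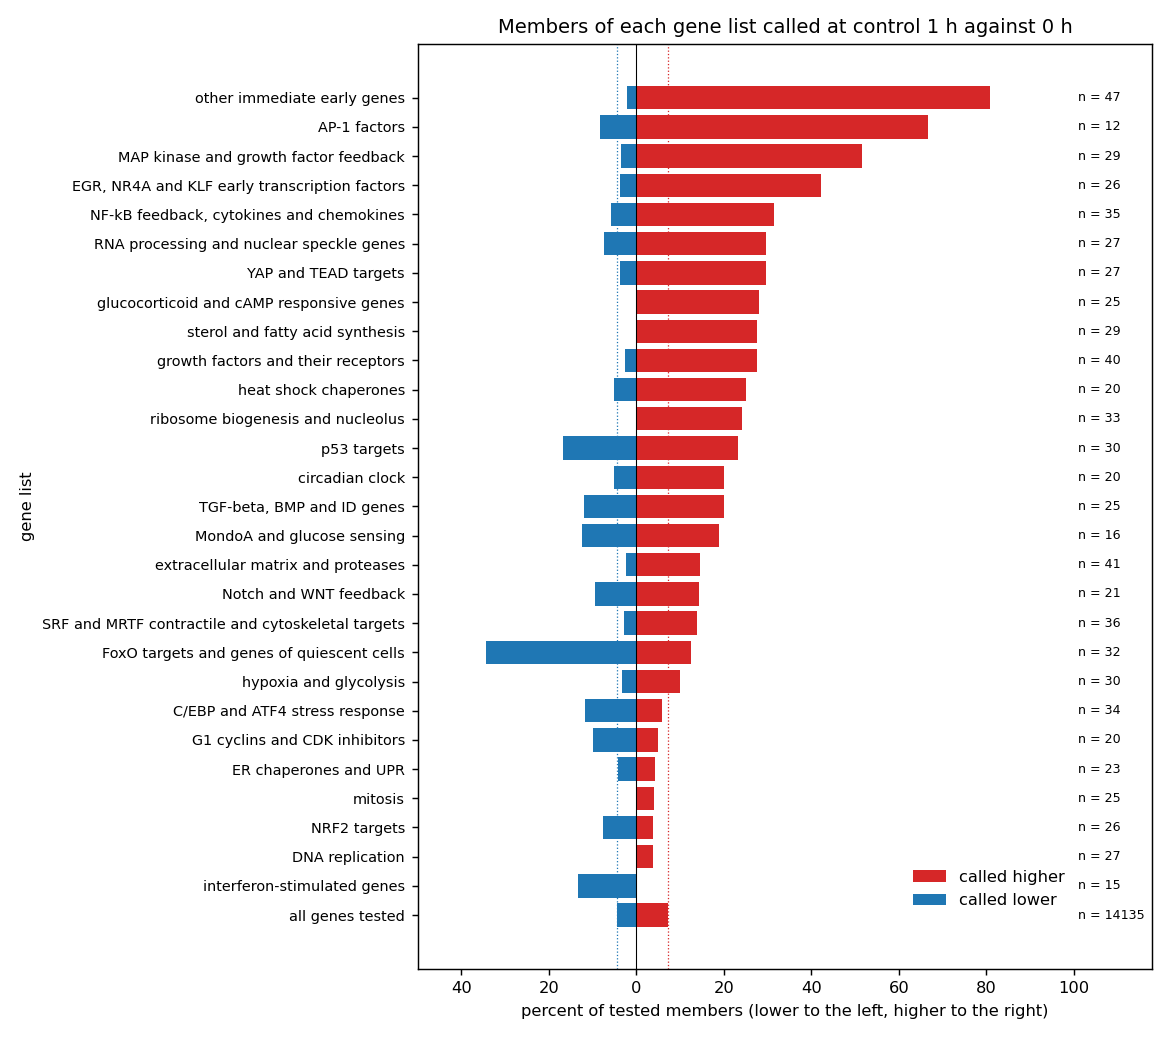
Percent of tested members of each gene list (y axis, with the number tested at the right) that rose (red, to the right) or fell (blue, to the left) at 1 h against 0 h. Dotted lines mark the shares over all 14135 genes tested, 7.22% and 4.38%. Immediate early lists stand furthest to the right, and FoxO targets and genes of quiescent cells reach furthest to the left.

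FoxO factors are active when growth factor signalling is low and are shut out of the nucleus by AKT. Their targets, listed with genes of quiescent cells, held the largest share of falls of any list, 11 of 32 (34.4%, against 4.38% of all genes tested). The list had 4 rises (12.5%, against 7.22%) and a median of -0.14. Without control 0 h replicate 3, 8 falls and 3 rises were called. Irs1, the adaptor of the insulin and IGF receptors, read 10.65, 10.64, 10.33 and 10.68 at 0 h, then 9.72, 9.53, 9.79 and 9.52 at 1 h, a fall by 0.94 ± 0.09 (1.91-fold, adjusted p = 6.5e-09), without overlap. Its relative Irs2 fell by 0.62 ± 0.12. The cyclin gene Ccng2 fell by 0.75 with control 0 h replicate 3, which read 10.87 against 9.43 to 9.67 on the other 0 h arrays, and by 0.42 without it. Sesn1 fell by 0.82 only with that array, which read 9.18 against 6.83 to 7.31 (adjusted p = 0.039), and its difference was -0.30 without it (adjusted p = 0.13). Bcl6 (-0.45) fell. The rises were Tnfaip6, Cited2, Btg1 and Zbtb20.

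Genes that report glucose and nutrient state moved in both directions. MondoA drives Txnip and Arrdc4 when sugar phosphates are plentiful, and both proteins limit glucose uptake. Txnip read 9.70, 9.70, 9.99 and 9.77 at 0 h, then 9.07, 9.22, 9.22 and 9.02 at 1 h, a fall by 0.66 ± 0.08, and Arrdc4 fell by 0.64 ± 0.11. The glucose transporter gene Slc2a1 read 10.53, 10.47, 10.47 and 10.46 at 0 h, then 11.34, 11.39, 11.37 and 11.65 at 1 h (0.95 ± 0.09). None of these groups overlapped. Of 16 genes in that list 3 rose (18.8%, against 7.22% of all genes tested) and 2 fell (12.5%, against 4.38%). Of these, 2 rises and both falls were called without control 0 h replicate 3.

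Among 34 genes of the C/EBP and ATF4 stress response, 4 fell (11.8%) and 2 rose (5.9%). Over all genes tested, 4.38% fell and 7.22% rose. All calls of this list were also made without control 0 h replicate 3. The falls were Sesn2 (-0.74), Ddit3 (-0.47), Atf5 (-0.43) and Atf4 (-0.33); the rises were Atf3 and the phosphatase subunit gene Ppp1r15a (0.80). Amino acid genes such as Asns, Chac1 and Trib3 were not called. Of 20 genes in the heat shock list 5 rose and 1 fell, the heat shock factor gene Hsf2 (-0.52), and 4 of the rises and the fall were called without control 0 h replicate 3. Dnajb1, a co-chaperone of HSP70, rose by 1.30 ± 0.07, Dnajb4 by 0.93 and Hspa1a by 0.90 ± 0.09, while Hsph1, Hsp90aa1 and Hspb1 were not called.

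Some lists rose in part, by less than 2-fold. Over all genes tested, 7.22% rose and 4.38% fell. Of 29 sterol and fatty acid synthesis genes 8 rose and none fell, with a median of 0.14, and all 8 were called without control 0 h replicate 3. They were led by Insig1 (0.55 ± 0.07), which holds SREBP back in the endoplasmic reticulum, and Idi1 (0.52). Of 33 ribosome biogenesis genes 8 rose and none fell (median 0.12), led by the helicase gene Ddx21 (0.51 ± 0.07), and 7 were called without control 0 h replicate 3. Of 27 RNA processing genes 8 rose and 2 fell (median 0.15), with Ccnl1 (0.51) the largest rise and Rsrp1 (-0.80) the largest fall; 6 rises and both falls were called without control 0 h replicate 3. Among 30 p53 targets 7 rose (23.3%) and 5 fell (16.7%), or 5 and 3 called without that array. Btg2, Plk3 and Plk2 were the largest rises, and Cdkn1a, Ccng1 and Bbc3 were not called.

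Cell cycle genes are read here against the 7.22% of all genes tested that rose and the 4.38% that fell. Of 27 DNA replication genes 1 rose (Orc1, 0.41) and of 25 mitosis genes 1 rose (Tpx2, 0.28), neither called without control 0 h replicate 3. Among 20 G1 cyclins and CDK inhibitors, Cdk6 rose, Cdkn2b fell by 0.49 ± 0.06 and Cdkn1b fell, while the cyclin gene Ccnd1 had a difference of -0.15 ± 0.07 (adjusted p = 0.18). Without that array only the fall of Cdkn2b was still called, while Cdk6 (adjusted p = 0.079) and Cdkn1b (adjusted p = 0.07) were not. The ER chaperone list had 1 rise and 1 fall among 23, both also called without it. NRF2 targets had 1 rise and 2 falls among 26, and both falls (Gstp1 and Keap1) were lost without it. Hypoxia and glycolysis genes had 3 rises and 1 fall among 30, and the rise of Hk2 was lost without it. Matrix genes had 6 rises and 1 fall among 41, with Has2, which makes hyaluronan, up by 1.48 ± 0.11, and all 7 were called without that array. Serpinb2, an inhibitor of urokinase, was one of the rises, from a 0 h mean below the limit for testing to 5.18, at least 1.71-fold.

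The largest fall, that of 9930012K11Rik, was smaller than the largest rises. The gene read 6.73, 6.79, 6.71 and 6.77 at 0 h, then 4.94, 5.12, 5.32 and 5.15 at 1 h, 3.07-fold lower (-1.62 ± 0.12, adjusted p = 1.2e-11). Six4, a homeobox factor of muscle progenitors, fell by 1.07 ± 0.11, from 7.22 ± 0.18 (SD, n = 4) to 6.15 ± 0.18. The groups lay apart in both genes, but the other Six4 probe sets above the limit differed by only -0.46 and -0.49. The insulator gene Ctcf fell by 0.98 on its probe set, while another probe set read 8.43 and 8.41. Irf1, an interferon regulatory factor, read 7.69, 7.81, 9.67 and 7.74 at 0 h, then 7.07, 6.91, 6.92 and 6.41 at 1 h. Its difference was -1.40 ± 0.25 with control 0 h replicate 3 and -0.92 without it (adjusted p = 3.5e-06). Stat2 (-0.94, and -0.74 without that array) and Irf9 (-0.41, not called without it), both of interferon signalling, fell. No other of the 15 interferon-stimulated genes tested was called. Another Stat2 probe set above the limit differed by -0.49.

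Zinc finger genes named Zfp, Zkscan, Zscan or Zbtb were common among the falls, a grouping chosen after the values were seen. Many of them encode KRAB or BTB domain repressors with long rows of fingers. Of 359 tested (the Zfp36 family left out), 94 fell (26.2%) and 21 rose (5.85%), with a median of -0.15, while 3.81% of the 13776 other genes fell. They made up 9 of the 14 falls of at least 2-fold, and 82 of the 94 were called without control 0 h replicate 3. Zfp82 read 6.09, 6.01, 6.01 and 6.10 at 0 h, then 4.91, 4.65, 4.73 and 4.81 at 1 h (-1.28 ± 0.12, 2.42-fold lower). Zfp799 read 6.32, 6.41, 6.55 and 6.37 at 0 h, then 5.13, 4.99, 5.58 and 4.88 at 1 h (-1.27 ± 0.13). Zfp53 (-1.24), Zfp647 (-1.10), Zfp287 (-1.04) and Zfp12 (-1.02) fell as well, each without overlap. Another Zfp53 probe set above the limit differed by -0.71. Zkscan14 and Zbtb7a fell by 1.14 and 1.04 on the probe sets used, but their other probe sets above the limit differed by -0.13 and -0.18, and by -0.14 and 0.01.

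**Figure D4:**
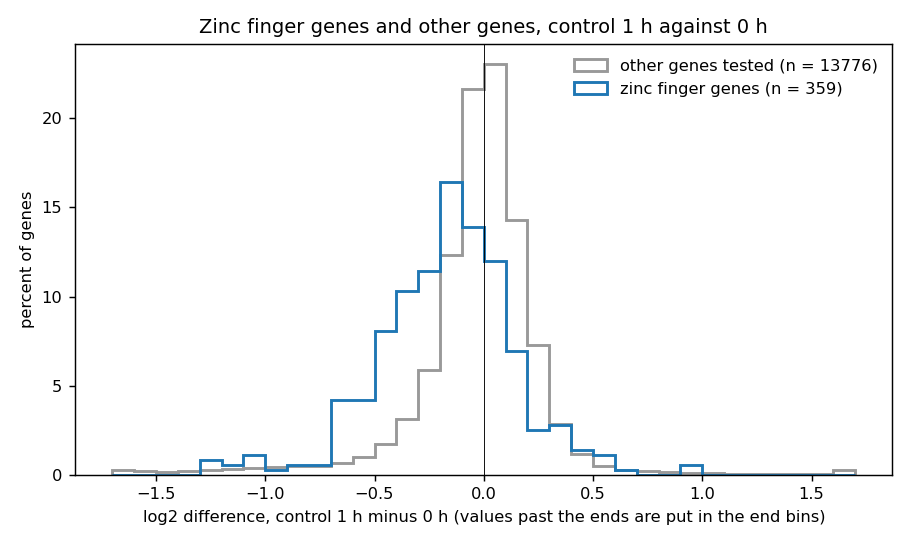
Distribution of the log2 difference (control 1 h minus control 0 h, x axis, in bins of 0.1) as the percent of genes (y axis) for the 359 zinc finger genes (blue) and the 13776 other genes tested (grey). The blue curve lies to the left of the grey one, with a median of -0.15 against 0.00.

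The control groups at 8, 24 and 72 h can be set against those at 1 h and at 0 h. These contrasts share the 1 h or the 0 h arrays with the comparison above, so they are no independent evidence, and the values are given side by side. Mean Egr1 was 11.08 at 0 h, 13.18 at 1 h, 9.77 at 8 h, 11.13 at 24 h and 10.77 at 72 h. Nr4a1 was 7.83, 12.55, 9.75, 7.94 and 7.25, and Errfi1 9.42, 13.13, 10.90, 10.29 and 9.03. All 3 were highest at 1 h, and Egr1 was lowest at 8 h. Of the later control groups, that at 8 h differed from 1 h in the most genes, with 36.0% of all genes tested called higher and 24.6% lower. Dusp6 stayed at 10.12 at 8 h from 10.19 at 1 h. Irs1 was 10.58, 9.64, 10.42, 10.57 and 11.61, with its lowest mean at 1 h.

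Of the 83 genes with a 2-fold rise, 64 were lower at 8 h than at 1 h (24.6% of all genes tested) and 7 were higher (36.0%), and 80 were lower at 24 h (4.30%) and all 83 at 72 h (18.6%). The 7 were Serpinb2 (3.12), Lce1f (2.74), Dusp4 (2.53), Rgs16 (1.54), Mex3b (0.56), Ankrd1 (0.45) and Spry2 (0.30), as log2 8 h minus 1 h. Serpinb2, Rad18 and Dusp4 were the 3 not called lower at 24 h. Against 0 h, 56 of the 83 were higher at 8 h (35.8% of all genes tested) and 10 lower (23.6%). At 24 h, 27 were higher than at 0 h (9.12%) and 1 lower (2.06%), and at 72 h 6 were higher (21.8%) and 49 lower (16.3%). Of the 14 genes with a 2-fold fall, 12 were higher at 24 h than at 1 h (8.16% of all genes tested), and Zbtb7a and Clec2d were not called, and 13 were higher at 72 h (22.6%).

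**Figure D5:**
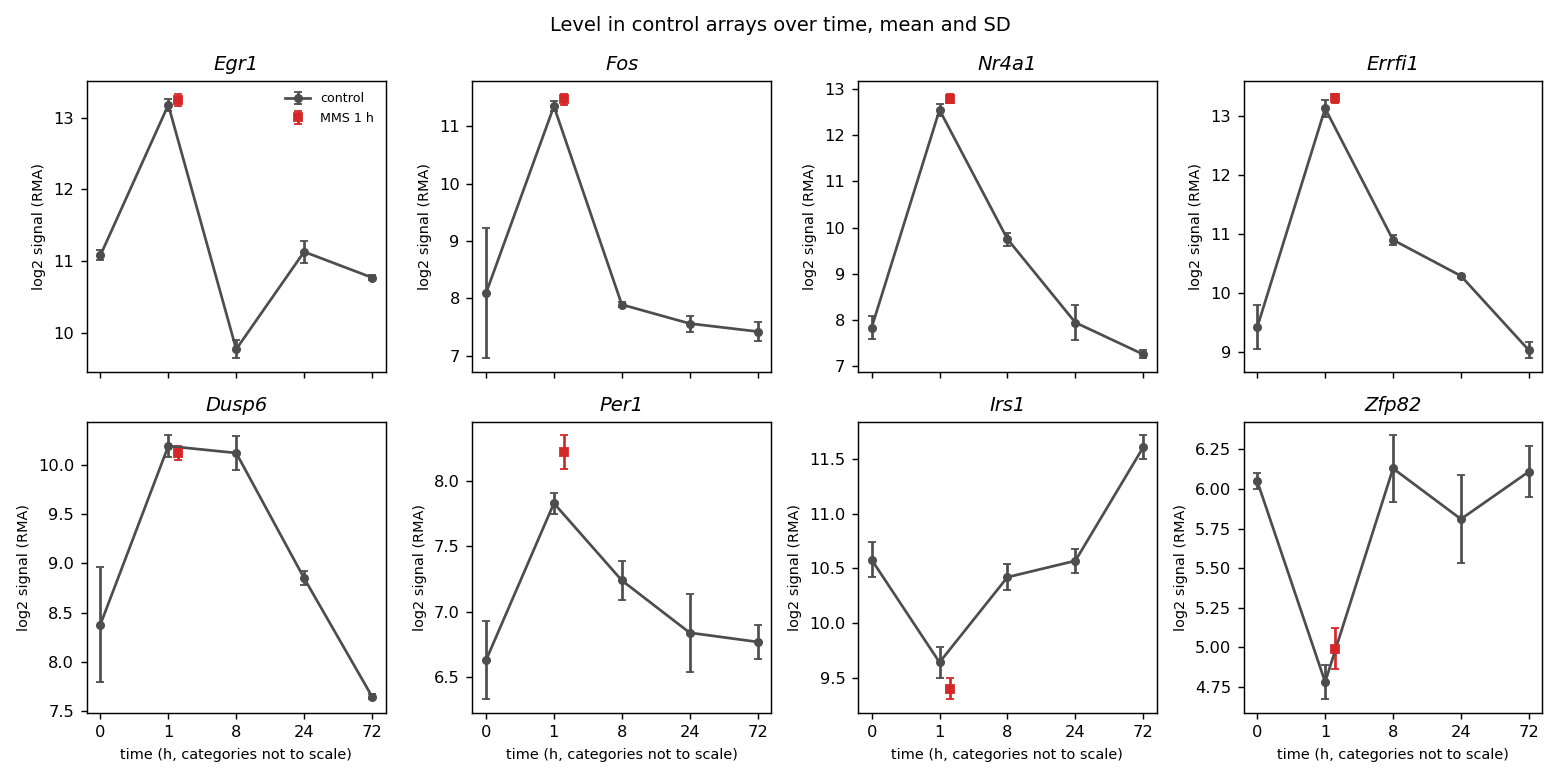
Mean log2 signal (y axis) with SD of 8 genes in the control groups at 0, 1, 8, 24 and 72 h (x axis, categories not to scale; grey, n = 4 arrays each) and in MMS-treated cells at 1 h (red square). Egr1, Fos, Nr4a1, Errfi1 and Per1 are highest at 1 h, Dusp6 is level from 1 h to 8 h, and Irs1 and Zfp82 are lowest at 1 h.

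Cells given MMS at 1 h had their medium exchanged too, and they can be set against control cells at 24 h. This comparison shares no array with the one above. Its groups differ in MMS, in the time since plating and in the time since the medium change, which cannot be told apart. MMS 1 h replicate 3 was among the arrays left out of an alternative fit for their intestinal transcripts, and this comparison was not refitted without it. With all its arrays, 82 of the 83 genes were called higher (5.94% of all genes tested), with a median log2 difference of 1.54. Of the 14, 12 were called lower (10.5%), with a median of -0.91. The exception among the rises was Rad18 (-0.14), whose other probe sets had differed by only 0.10 to 0.23 between 0 h and 1 h, and among the falls Zbtb7a (0.36) and Clec2d (-0.16). Nr4a1 was 4.85 higher in MMS at 1 h than in control at 24 h, Atf3 5.44 and Egr3 4.28, and 9930012K11Rik was lower by 1.66. Between MMS and control at 1 h, which shares the control 1 h arrays, 14 of the 83 were higher in MMS (0.361% of all genes tested) and none lower (0.0283%). Dusp2 (1.05), Arc (0.73), Gem (0.71), Npas4 (0.70), Junb (0.67) and Csrnp1 (0.65) were among them. Egr1 (0.07), Egr2 (0.06), Egr3 (0.01) and Fos (0.12) were not called in that comparison.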

How the data were processed

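Gene expression in MEFs was measured on Affymetrix arrays, 35 of which were used. The values deposited by the authors are log2 signals of 45101 probe sets, processed with RMA, whose version the sources used here do not give. Array medians were 4.98 to 5.09. Arrays have no read depth, and their number, 4 a group, limits the precision. A single gene symbol is annotated for 34958 probe sets, several for 932 and none for 9211. For a gene with several single-symbol probe sets, the one brightest on average was taken, which gave 18194 genes. A gene entered the tests when some group averaged log2 4.40 or more, the 40th percentile of the table. Control 1 h was contrasted with control 0 h in a limma model (version 3.58.1, R 4.3.3) that held all 35 arrays and left 26 residual degrees of freedom. Tests were two-sided, with Benjamini-Hochberg adjustment across the genes tested and a threshold of 0.05. The fitting script was tested on simulated data.

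The comparison, the members of 38 gene lists and the naming rule were chosen with earlier results of these data known. The rule took the 20 largest rises and 20 largest falls that were called with and without control 0 h replicate 3, did not overlap between groups and were in no list of other cell types. It added up to 5 called members per direction of each list and the AP-1, EGR, NR4A and clock genes, and other genes named were chosen after their values were seen. The lists hold 950 different genes, of which 901 matched a gene of the arrays and 841 were tested. Alternatives covered the arrays fitted, each array left out, the filter, the probe set rule, the scaling, array weights, a replicate block and a t-test. The study's methods give that t-test with the RNA sequencing of human cells, and for the arrays they name a permutation analysis by a service. Motifs were searched in RefSeq promoters of GRCm38.p6. The MMS 72 h group has 3 arrays here, and all other groups have 4.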

Additional observations from a re-analysis of the deposited data

Results flagged for a closer look

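Each named gene was checked in both groups of 4 arrays for a highest or lowest array that stands apart from the other 3. Of 80 such groups, 7 held one, where chance gives about 1 in 20, and 5 of the 7 were control 0 h replicate 3, the array with intestinal transcripts. On that array Fos read 9.78 (7.38 to 7.74 on the other 3), Irf1 9.67 (7.69 to 7.81), Efna1 8.14 (6.22 to 6.43), Fosb 3.92 (3.62 to 3.67) and Irs1 10.33 (10.64 to 10.68). Outside it, Ch25h read 9.84 on control 1 h replicate 1 (10.17 to 10.21 on the others), and Zfp61 read 5.56 on control 0 h replicate 4 (4.97 to 5.07). The part of the intestinal transcripts in these values was not tested.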

How the results depend on the processing

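Of the 40 genes with the largest changes, 35 kept direction and call in all 24 alternatives, and none reversed; Efna1 lost the call in 4, Irf1 in 3, Clec2d and Stat2 in 2 and Zfp157 in 1. Of the 2-fold genes, 78 of 83 and 12 of 14 were called in each alternative that tested them. The counts of all calls moved more. A fit of only the 8 arrays gave 572 rises and 298 falls. The t-test that the methods give with the RNA sequencing gave 562 and 252 after adjustment, and 83 and 14 unadjusted with a fold above 2. Array weights gave 2559 and 2185, and array weights with only the 8 arrays (chosen after seeing the data) 2128 and 1698. Leaving out both arrays numbered 3 gave 560 rises. The replicate block gave 204 and 85 with the 8 arrays and 1019 and 623 with all 35. Same-numbered 0 h and 1 h arrays deviated together with correlations of 0.236, 0.187, 0.326 and -0.096, and not each array correlated best with its own number. Such correlations within groups of 4 arrays cannot decide whether the numbers pair the samples, and the sources used here do not say. The share of rises among calls was 62.3%, 74.6% after centring on the median, which shifts all differences by 0.041, and 55.4% after quantile normalization. When a gene's probe sets were averaged, 8 genes fell 2-fold and 6 of them were also lower in MMS at 1 h than in control at 24 h. Leaving out 1 array gave 725 to 1342 rises, 460 to 656 falls, 80 to 88 2-fold rises and 13 to 50 2-fold falls, the most without control 0 h replicate 4. The cause of these shifts was not tested. Below log2 4.40 no change can be read. Control 0 h replicate 3 left out of a fit of the 7 other arrays was also chosen after seeing the data.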
